A study of Mus musculus with 6 samples.

Results

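The 10 genes described here are the imprinted growth regulators Igf2, H19, Dlk1, Meg3, Grb10, Igf2r, Plagl1, Peg3, Usp29 and Rasgrf1. They were chosen from earlier results on these arrays, around the large differences of Igf2 and Dlk1, and each was read from the probe set annotated to its symbol alone. Of the 10 symbols, 9 had such a probe set, 1 each, out of 19938 genes measured in this way. H19 is not analysed here.

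The arrays compare progenitor cells of the mouse cerebral cortex with the neurons they give rise to. All cells came from the brains of C57BL/6J mice and were sorted by fluorescence (FACS) using a pair of reporters. The 3 GFP+ samples are labelled as cortical neural progenitors, and the 3 RFP+ samples as differentiated neuronal progeny. The RFP+ labels name the brain without a region, whereas the GFP+ labels name the cortex, so region and cell type cannot be told apart where regions differ. The sources used here do not give the promoters behind the reporters, the age of the mice or whether replicates came from separate animals. The p-values below therefore measure only the spread between these samples, which may be technical.

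An imprinted gene is expressed from the copy inherited from the mother or from the copy inherited from the father, according to DNA methylation laid down in the germ line. Many such genes act on growth. Igf2, a paternally expressed hormone, promotes it. Igf2r and Grb10, maternally expressed in many but not all tissues, restrain it. Imprinted genes lie in domains in which neighbours of opposite parental origin share control elements, as Igf2 does with H19 and Dlk1 with the noncoding RNA gene Meg3. These arrays do not separate the parental copies, so every value is the sum over both.

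Values are array intensities on a linear scale. Differences are GFP+ minus RFP+, taken after adding 16 to each intensity and going to log2, and carry a standard error (SE). The offset of 16 makes folds on that scale understate the change of dim genes. Near-background signal was gauged from 1027 olfactory receptor genes, whose 95th percentile averaged 210.8 on the GFP+ arrays and 206 on the RFP+ arrays. The labels were checked against markers. All 10 cortical progenitor markers were higher in GFP+ (Slc1a3 8.16-fold, limma adjusted p = 7.26e-09) and all 9 measured cortical neuron markers were higher in RFP+ (Snap25 5.14-fold, adjusted p = 6.54e-08). The progenitor markers still summed to 10310.5 to 11484 on the RFP+ arrays, against 44366 to 45579 on the GFP+ arrays. The neuron markers summed to 25062 to 29588 on the GFP+ arrays, against 67170 to 72578 on the RFP+ arrays.

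The 9 genes did not move as a block: Igf2, Dlk1, Grb10, Plagl1 and Igf2r were higher in the GFP+ progenitors, Meg3, Usp29 and Rasgrf1 were higher in the RFP+ neurons, and Peg3 lay in the same range in both. At a limma adjusted p of 0.05, 5 were called higher in GFP+, 3 higher in RFP+ and 1 was not past the threshold. Of all genes tested, 29.98% were called, 13.8% higher in GFP+ and 16.2% higher in RFP+. For 8 of the 9 the groups did not overlap, as was so for 43.9% of all genes (19.9% higher in GFP+, 24.1% higher in RFP+). Because the genes were chosen on this same contrast, nothing is read from those counts, and the differences of the 9 genes are given as a description without a test. Their median log2 difference was 0.62, and that of all genes was -0.08.

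**Figure D1:**
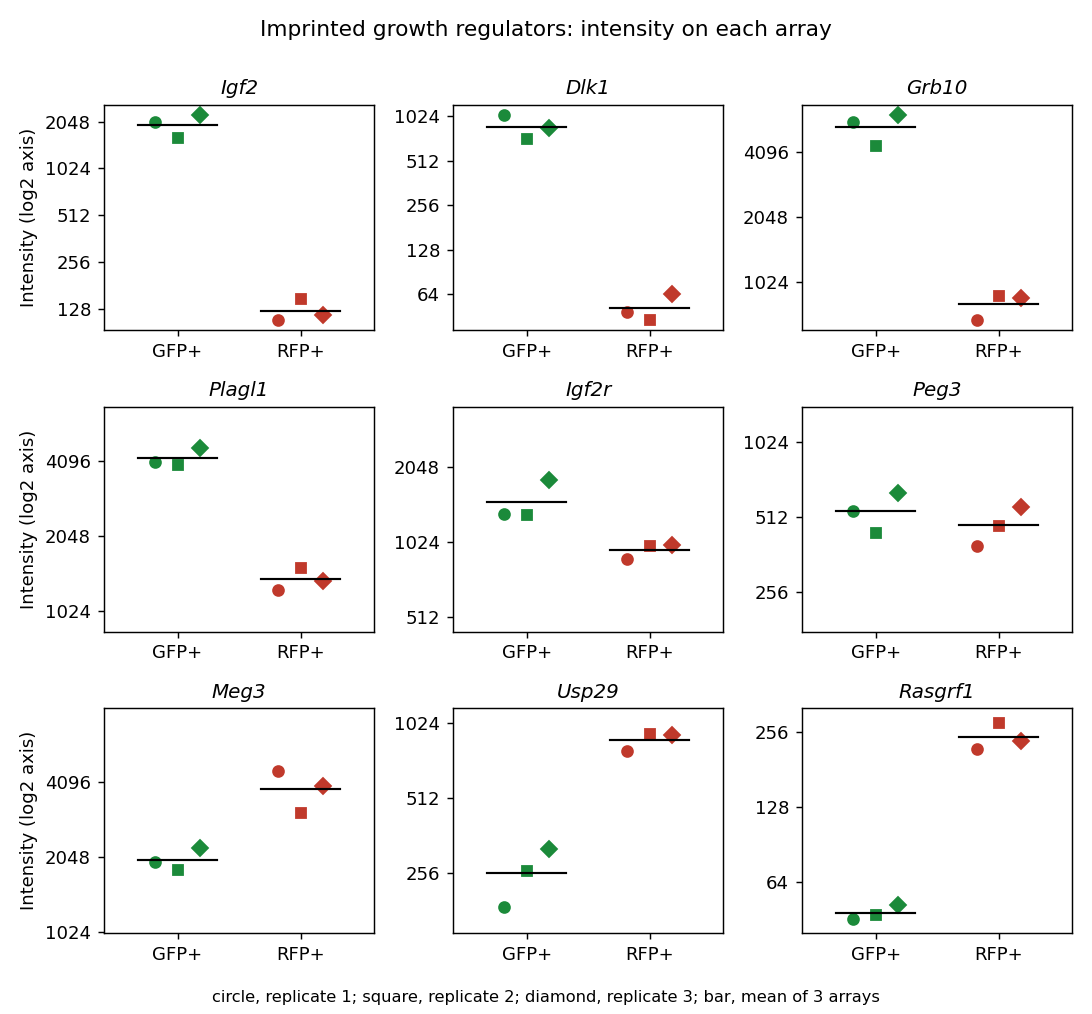
Intensity of the 9 measured genes on each of the 6 arrays (log2 axis, 1 panel per gene), with green points for GFP+ progenitors, red points for RFP+ neurons, point shapes for replicate numbers and a bar for the mean of 3 arrays. Igf2 and Dlk1 stand farthest apart, with GFP+ and RFP+ means of 1955 and 124 for Igf2 and 869 and 51.9 for Dlk1. The folds in the text, 14.1 for Igf2 and 12.99 for Dlk1, include the offset and differ from the distances drawn. Peg3 is the gene whose groups overlap.

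Igf2, the insulin-like growth factor hormone, had the fifth-largest difference of all genes. Its intensity was 2023, 1598 and 2245 on GFP+ replicates 1, 2 and 3, and 108, 147 and 116 on RFP+ replicates 1, 2 and 3. Every GFP+ array was thus far above every RFP+ array, and the RFP+ mean lay under the near-background level. The means were 1955 ± 329 and 124 ± 20.5 (SD, n = 3 each), and the log2 difference was 3.82 ± 0.21 (SE), or 14.1-fold. In sorted populations, fewer cells of an expressing type and less RNA per cell cannot be told apart, for this gene and all that follow.

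Igf2r, the cation-independent mannose 6-phosphate receptor, carries lysosomal enzymes and takes up IGF2 for degradation. It was read at 1327, 1315 and 1825 on the GFP+ arrays and at 882, 992 and 995 on the RFP+ arrays. The groups did not overlap, but GFP+ replicate 3 alone held the high end. The log2 difference was 0.62 ± 0.21, or 1.53-fold. The call was lost without GFP+ replicate 3 (log2 difference 0.46) and without RFP+ replicate 1 (0.56), 2 (0.64) or 3 (0.65).

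Grb10, an adaptor protein that binds the insulin and IGF1 receptors and damps their signal, had the largest difference of the set after Igf2 and Dlk1. Its GFP+ intensities were 5695, 4404 and 6088, and its RFP+ intensities 683, 886 and 859. Both groups lay above the near-background level, so its 6.54-fold difference (log2 2.71 ± 0.21) depends less on the offset than those of Igf2 and Dlk1. The means were 5396 ± 881 and 809 ± 110.1 (SD, n = 3 each).

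Around these 3 genes, the insulin and IGF pathway moved both ways. Of 39 measured pathway genes, 8 were higher in GFP+, 6 were higher in RFP+ and 25 were not past the threshold, with a median log2 difference of -0.11. That is 20.5% higher in GFP+, where all genes gave 13.8%, and 15.4% higher in RFP+, where all genes gave 16.2%. The receptor genes themselves were not past the threshold: Igf1r had a log2 difference of -0.26 (adjusted p = 0.354) and Insr one of -0.49 (adjusted p = 0.0892). Igf1, the other IGF ligand gene, had one of -0.11 (adjusted p = 0.767).

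Among the genes of secreted IGF-binding proteins, Igfbp5 and Igfbp4 were higher in GFP+ and Igfbp3 was higher in RFP+, whereas Igfbp1, Igfbp2 and Igfbp6 were not past the threshold (log2 differences -0.38, 0.20 and 0.28, adjusted p = 0.192, 0.518 and 0.311). Igfbp4 had a log2 difference of 0.80 (adjusted p = 0.00410). Igfbp1, Igfbp2, Igfbp4 and Igfbp6 are named after their values were seen. Igfbp5 was read at 1959, 2516 and 2237 on the GFP+ arrays and at 168, 269 and 155 on the RFP+ arrays, 10.8-fold higher in GFP+ (log2 difference 3.43 ± 0.22, adjusted p = 1.87e-09). Igfbp7, whose product is related to the IGF-binding proteins, was 7.81-fold higher in GFP+ (adjusted p = 2.45e-08). Igfbp3 went the other way, at 348, 719.7 and 464 on the GFP+ arrays and 2162, 3229 and 2151 on the RFP+ arrays, 4.92-fold higher in RFP+ (adjusted p = 5.60e-07). Pappa2, a protease that cleaves IGF-binding proteins, was 3.24-fold higher in RFP+ (adjusted p = 1.35e-05).

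Inside the cell, the adaptor genes Shc1 and Irs1, which couple the insulin and IGF receptors to Ras and to PI3-kinase, were 2.27-fold and 1.98-fold higher in GFP+ (adjusted p = 0.000305 and 0.000700). Grb14, the closest relative of Grb10 among the genes listed, went against it. It was read at 193, 301 and 252 on the GFP+ arrays and 914, 753 and 661 on the RFP+ arrays, a log2 difference of -1.59 (adjusted p = 9.97e-06). It is named here after its values were seen.

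The lysosomal genes that accompany the other role of Igf2r went both ways. Of 18 measured, 4 were higher in GFP+ and 3 higher in RFP+, with a median log2 difference of 0.13. Together that is 38.9%, where 29.98% of all genes passed. Gusb, a lysosomal enzyme gene, was 2.50-fold higher in GFP+ (adjusted p = 3.60e-05). Gnptab, which makes the mannose 6-phosphate tag, was 1.68-fold higher in RFP+ (adjusted p = 0.00613), and the protease gene Ctsb 1.69-fold (adjusted p = 0.00667). Lamp2, Npc2 and Nagpa, at 1.46-fold to 1.55-fold higher in GFP+, each lost the call in several single-array omissions, among them that of RFP+ replicate 3, without which 3 genes of the list passed. Without GFP+ replicate 1 or 2 or RFP+ replicate 1, 4 passed.

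Dlk1 encodes a membrane protein related to the Notch ligands, best known for holding back fat cell differentiation. It was read at 1037, 715 and 855 on the GFP+ arrays and at 48.7, 43.0 and 64.1 on the RFP+ arrays. As for Igf2, the groups were far apart, GFP+ replicate 2 was the lowest of its group, and the RFP+ mean lay under the near-background level. The means were 869 ± 161 and 51.9 ± 10.9 (SD, n = 3 each), and the log2 difference was 3.70 ± 0.21, or 12.99-fold. With an offset of 1 in place of 16 the log2 difference was 4.04. Its relative Dlk2 went the other way, 1.81-fold higher in RFP+ (log2 difference -0.86, adjusted p = 0.00282).

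Meg3, the maternally expressed noncoding RNA gene next to Dlk1, had the opposite direction. It was read at 1957, 1809.5 and 2227 on the GFP+ arrays and at 4514, 3075 and 3929 on the RFP+ arrays. It was well above background in both groups, and its RFP+ arrays spread more (3839 ± 723) than its GFP+ arrays (1998 ± 212; SD, n = 3 each). The log2 difference was -0.92 ± 0.21, 1.90-fold higher in RFP+.

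The promoter windows of the members, taken from RefSeq (GRCm38.p6; 250 bases before to 50 after the start), show what the genes share at their starts. There were 14 windows for 9 of the 10 symbols. They held 1 to 45 CpG dinucleotides, where the median over all 32851 RefSeq windows was 7. The first Grb10 window held 45, as many as or more than 98.4% of windows, Igf2r 34, Plagl1 and Rasgrf1 26 each, and Dlk1 9. The 4 Igf2 windows held 2, 14, 24 and 7. The Meg3 window with the most CpG, chr12:109540746-109541045 on the plus strand, is shown because Meg3 leads the RNA genes described next. It holds 13 CpG. Capitals mark CCAAT and, on either strand, the TATA box letters TATAAA, and also the cAMP response element TGACGTCA. The TATA box was found on both strands in matches that overlap each other, and TGACGTCA reads the same on both strands.
Meg3 promoter window: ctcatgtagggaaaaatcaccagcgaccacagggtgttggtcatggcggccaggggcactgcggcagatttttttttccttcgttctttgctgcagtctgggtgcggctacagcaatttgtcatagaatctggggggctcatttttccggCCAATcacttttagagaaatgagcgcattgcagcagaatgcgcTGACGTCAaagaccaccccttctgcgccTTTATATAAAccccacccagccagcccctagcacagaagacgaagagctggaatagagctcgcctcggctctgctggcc

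Of all windows of this length, 37.4% hold CCAAT, 13.6% the TATA box letters and 1.79% the cAMP response element on either strand. A match describes the letters in the window and was not tested as a binding site.

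The other genes of the Dlk1 and Meg3 domain did not follow Dlk1. All 7 measured protein-coding and noncoding neighbours had a log2 difference below 0 (median -0.41), where the median over all genes was -0.08. Ppp2r5c (-0.05), Wars (-0.07) and Rtl1 (-0.07) lay no lower than that median. None of the 7 was called higher in GFP+, and 2 were called higher in RFP+. That is 28.6%, where 16.2% of all genes were called in that direction. Of the 7, 3 lay under the near-background level in both groups, Rtl1 and Dio3 among them. The GFP+ means of Begain and Rian, the 2 called, also lay under it. Begain, a synapse-associated gene, was read at 186, 187 and 162 on the GFP+ arrays and 532, 439 and 282 on the RFP+ arrays (log2 difference -1.12, adjusted p = 0.000806). Rian, a maternally expressed noncoding RNA gene downstream of Meg3, was read at 102, 77.0 and 229 on the GFP+ arrays and 311, 201 and 284 on the RFP+ arrays (log2 difference -0.996, adjusted p = 0.0113). The Rian groups overlapped, through GFP+ replicate 3. Rtl1, a paternally expressed retrotransposon-derived gene, had a log2 difference of -0.07 (adjusted p = 0.836), and Dio3, a thyroid hormone deiodinase gene, one of -0.46 (adjusted p = 0.267). Rian lost the call without GFP+ replicate 1 (adjusted p = 0.0574), GFP+ replicate 2 (0.0790) or RFP+ replicate 1 (0.0515), and 1 of the 7 neighbours passed in each of those omissions.

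**Figure D2:**
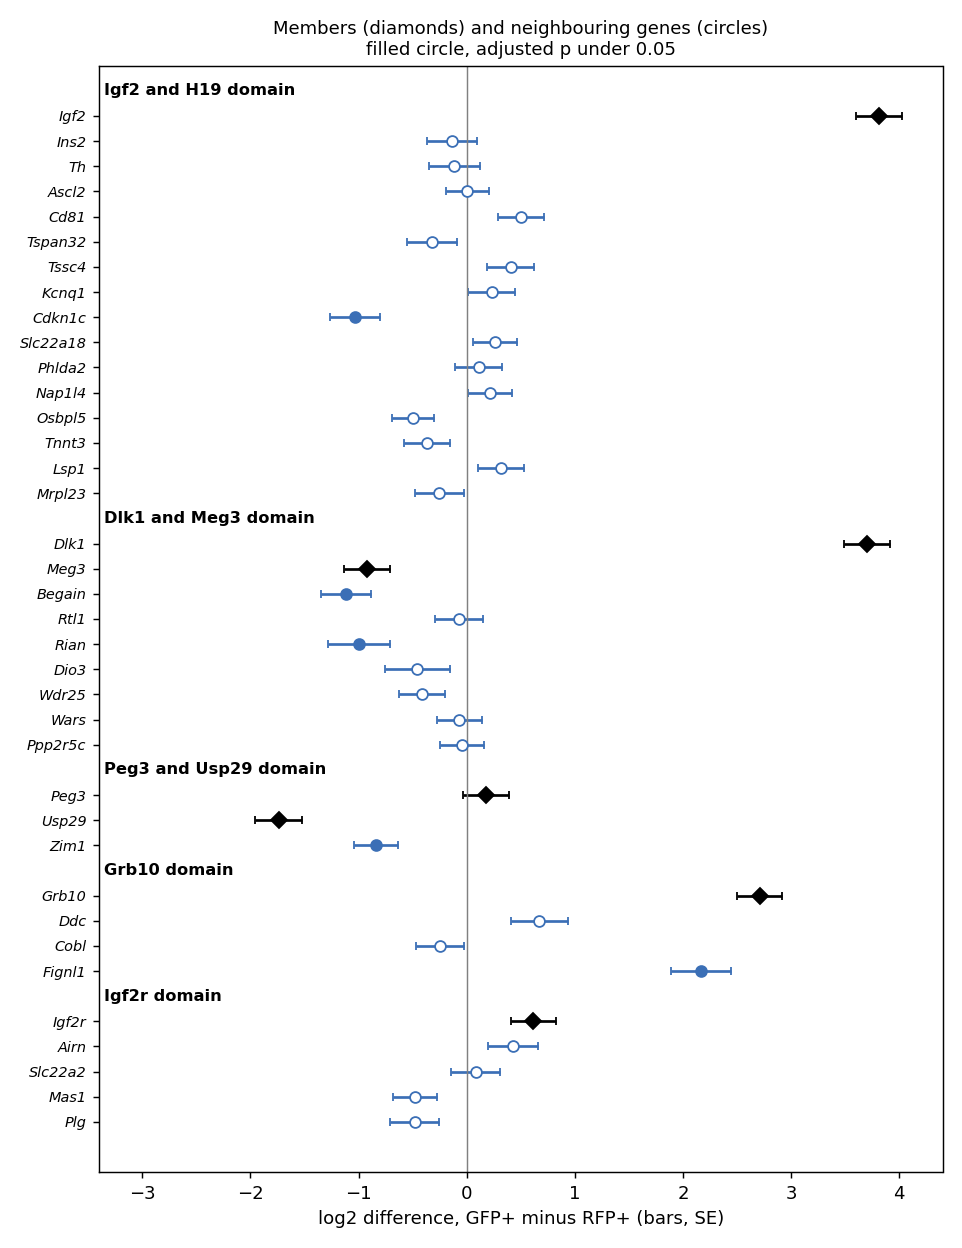
Log2 difference (GFP+ minus RFP+; bars, SE of the limma fit on 3 arrays per group) of the measured members (black diamonds, drawn without a test) and of the neighbouring genes of each imprinted domain (blue circles, filled where the adjusted p was under 0.05). Igf2 at 3.82 and Dlk1 at 3.70 stand apart from the genes listed around them, which lie between -1.12 and 0.50. Some of those genes had signal under the near-background level in both groups.

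The same domain holds a large cluster of maternally expressed microRNA genes. Of 52 listed, 40 had a probe set of their own. They include Mir345, which lies before Dlk1 and outside the cluster and was not called. None was called higher in GFP+ and 11 were called higher in RFP+, which is 27.5% of those measured, where 16.2% of all genes were called in that direction. In all, 33 of the 40 lay below 0, and the median was -0.35, where the median over all genes was -0.08. The signal was low: 28 of the 40 lay under the near-background level in both groups, as did 9 of the 11 called. For all 11 called genes (Mir127, Mir329, Mir337, Mir369, Mir376a, Mir381, Mir434, Mir487b, Mir496a, Mir539 and Mir540) the GFP+ mean lay under it. Mir127 (adjusted p = 0.0495) lost its call with an offset of 1 (0.0526) and in all single-array omissions except that of GFP+ replicate 3 (adjusted p up to 0.163). Without the dimmest 30% of genes 5 passed, without the dimmest 50% 1 passed, and 6 passed when RFP+ replicate 3 was left out. Whether these probe sets read mature microRNA or a longer transcript was not tested.

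The 4 with the largest differences are shown by their mature RNAs, from RefSeq (GRCm38.p6), so that their seeds can be compared. Capitals mark the seed, bases 2 to 8, with which a microRNA pairs to its targets.
mmu-miR-487b-5p: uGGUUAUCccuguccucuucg
mmu-miR-540-5p: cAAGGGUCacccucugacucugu
mmu-miR-540-3p: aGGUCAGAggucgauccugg
mmu-miR-381-5p: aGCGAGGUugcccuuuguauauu
mmu-miR-381-3p: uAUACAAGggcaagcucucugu
mmu-miR-369-5p: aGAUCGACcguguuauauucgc
mmu-miR-369-3p: aAUAAUACaugguugaucuuu

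None of these seeds is shared with another of the 78 mature RNAs that RefSeq gave for the measured microRNA genes of the Igf2 and Dlk1 domains. Some genes, Mir487b and Mir539 among them, had only 1 mature RNA there. Mature RNAs missing there and those of genes not measured were not compared. All 41 measured microRNA genes of both domains matched the table, with 78 mature RNAs and 76 different seeds. The 2 shared seeds were AUGUAAC, in miR-379-3p and miR-411-3p, and UGGAUAU, in miR-376b-5p and miR-376c-5p. Mir487b was read at 50.9, 79.6 and 116 on the GFP+ arrays and 165, 232 and 345 on the RFP+ arrays (log2 difference -1.42 ± 0.27, adjusted p = 0.000350). Mir540 was read at 71.2, 84.1 and 43.9 on the GFP+ arrays and 174, 213 and 174 on the RFP+ arrays (log2 difference -1.33 ± 0.22, adjusted p = 0.000103). In both genes every RFP+ array lay above every GFP+ array. Mir381 and Mir369 had log2 differences of -1.28 and -1.08 (adjusted p = 0.000623 and 0.00149), on intensities of at most 140.6 and 72.4.

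**Figure D3:**
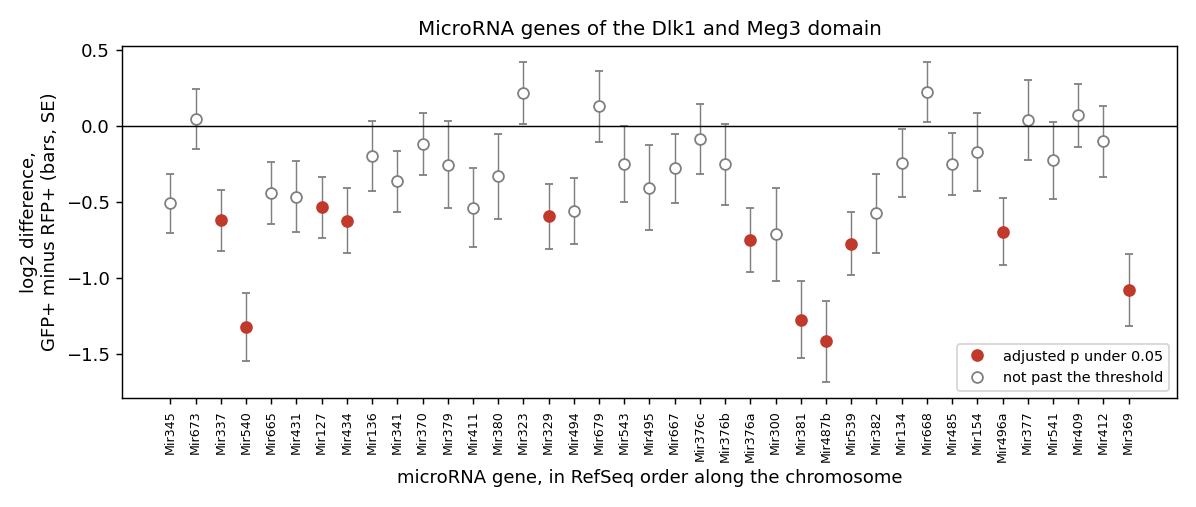
Log2 difference (GFP+ minus RFP+; bars, SE) of 39 microRNA genes of the Dlk1 and Meg3 domain in their RefSeq order along the chromosome, filled red where the limma adjusted p was under 0.05; Mir666, the fortieth measured, had no hairpin position in the table, and Mir345, the first, lies before Dlk1 and outside the cluster. The 11 filled points all lie below 0, from -0.54 for Mir127 to -1.42 for Mir487b, and are spread along the cluster.

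The genes listed around Igf2 and H19 stood apart from Igf2 in the same way. The list takes in a wider region, and its genes need not share the control elements of Igf2 and H19. Of 15 measured neighbours, none was called higher in GFP+ (1 at an unadjusted p under 0.05) and 1 was called higher in RFP+. That is 6.67%, where 16.2% of all genes were called higher in RFP+. The median log2 difference was 0.01. Ins2, the insulin gene next to Igf2, was read at 271, 222 and 258 on the GFP+ arrays and 317, 346 and 191 on the RFP+ arrays (log2 difference -0.14, adjusted p = 0.680). Ascl2, a transcription factor gene of the placenta, had a log2 difference of 0.01, and the microRNA gene Mir483, which lies within Igf2, one of 0.08 (adjusted p = 0.790). Cdkn1c, a maternally expressed inhibitor of cell division, was the gene called. It was read at 1887, 3279.9 and 1928 on the GFP+ arrays and 4908, 4975 and 4251 on the RFP+ arrays (log2 difference -1.03 ± 0.23, adjusted p = 0.00161). With GFP+ replicate 3 left out 2 neighbours passed, and with the replicate number as a block 3 passed, 1 higher in GFP+ and 2 higher in RFP+.

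Near Grb10, Fignl1, a DNA repair gene, was 4.50-fold higher in GFP+ (683, 1678 and 1258 against 171, 301 and 264; adjusted p = 4.43e-06). Ddc, an enzyme gene of dopamine and serotonin synthesis next to Grb10, had a log2 difference of 0.67 (adjusted p = 0.0612), and Cobl one of -0.25. Without GFP+ replicate 3, 2 of these 3 genes passed. Around Igf2r, 0 of 4 neighbours passed in the limma fit, and 2 had an unadjusted p under 0.05. All 4 lay under the near-background level in both groups, so little can be read from them. Their log2 differences ran from -0.48 (Mas1 and Plg) to 0.43 (Airn, the paternally expressed antisense RNA gene that overlaps Igf2r, adjusted p = 0.168). Without GFP+ replicate 2 or 3, 1 of the 4 passed. Igf2r and Airn overlap on opposite strands, and whether the probes of each tell them apart was not tested.

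Plagl1 (also called Zac1), a paternally expressed zinc finger transcription factor, was read at 4058, 3923 and 4598 on the GFP+ arrays and at 1239, 1515 and 1347 on the RFP+ arrays. It was bright in both groups and its replicates were close together. The means were 4193 ± 357 and 1367 ± 139 (SD, n = 3 each), and the log2 difference was 1.61 ± 0.20, or 3.05-fold. Its family members shared the direction: Plagl2 was 2.18-fold higher in GFP+ (1060.4, 979.97 and 973 against 470.2, 472 and 413; adjusted p = 0.000159). Plag1 was 1.94-fold higher (288, 325 and 359 against 154, 142 and 183; adjusted p = 0.00114).

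Peg3 and Usp29 are paternally expressed neighbours that start within the same stretch of chromosome 7 and are read in opposite directions. Peg3 encodes a zinc finger protein, and Usp29 a protein of the ubiquitin-specific protease family. The stretch common to their promoter windows, chr7:6730370-6730632, is 263 bases long and is shown on the plus strand, the strand of Usp29, because the values of the pair differed although their starts lie this close. Capitals mark CCAAT (2 matches), TGACGTCA and GGGGCCCC, searched on both strands, of which the last pair read the same on both.
Peg3 and Usp29 common window: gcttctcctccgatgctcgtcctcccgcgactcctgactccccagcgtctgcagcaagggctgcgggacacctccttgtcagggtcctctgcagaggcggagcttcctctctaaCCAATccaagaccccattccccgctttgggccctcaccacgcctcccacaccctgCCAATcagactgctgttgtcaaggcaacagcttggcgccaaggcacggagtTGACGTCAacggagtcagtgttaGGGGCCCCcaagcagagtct

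It holds 13 CpG. Over all RefSeq windows, GGGGCCCC was found in 1.08%, and among the windows of the members it was also found in that of Rasgrf1.

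Peg3 was read at 540.2, 442 and 640.4 on the GFP+ arrays and at 393, 473 and 559.8 on the RFP+ arrays. The groups overlapped, and in each the arrays spread widely (541 ± 99.4 and 475 ± 83.4; SD, n = 3 each). The log2 difference was 0.18 ± 0.22, within its error. Usp29 was read at 186, 261 and 319 on the GFP+ arrays and at 786, 919 and 914 on the RFP+ arrays. Its groups were far apart, with a log2 difference of -1.74 ± 0.22, 3.34-fold higher in RFP+, and its GFP+ mean of 255 ± 66.6 lay near the background level. Zim1, a maternally expressed zinc finger gene and the 1 other gene of the domain measured here, was 1.78-fold higher in RFP+ on dim signal (80.1, 104 and 101 against 161, 207 and 178; adjusted p = 0.00369).

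Rasgrf1, a paternally expressed exchange factor that activates Ras proteins in neurons, was the gene of the set with the largest difference towards RFP+. It was read at 45.3, 47.2 and 51.6 on the GFP+ arrays and at 218, 278 and 236 on the RFP+ arrays. The GFP+ arrays lay under the near-background level and close together, and the RFP+ arrays were just above it. The means were 48.0 ± 3.22 and 244 ± 30.9 (SD, n = 3 each), and the log2 difference was -2.02 ± 0.20, or 4.05-fold. With an offset of 1 it was -2.32.

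Other controls of Ras mostly did not share that direction. Of 17 measured, 4 were higher in GFP+, 1 was higher in RFP+ and 12 were not past the threshold. Together 29.4% passed, where 29.98% of all genes did. The median log2 difference was 0.09. Rras, a Ras-related GTPase gene, was 6.63-fold higher in GFP+ (563, 587 and 437 against 83.8, 64.7 and 51.3; adjusted p = 1.10e-08), and the exchange factor gene Rasgrp3 4.29-fold (61.1, 111 and 261 against 10.01, 24.6 and 16.7; adjusted p = 3.84e-05). Both group means of Rasgrp3 lay under the near-background level, so that its fold is uncertain. The inhibitor gene Spred1 was 1.99-fold higher in GFP+ (adjusted p = 0.000995), and Rasa3, a GTPase-activating protein gene, 1.68-fold (adjusted p = 0.00809; 0.0509 without RFP+ replicate 3). Rasgrp1, another exchange factor gene, was 1.96-fold higher in RFP+ (adjusted p = 0.00110), also on signal under that level in both groups. Rasgrf2, the relative of Rasgrf1, had a log2 difference of -0.39 (adjusted p = 0.225) on intensities of at most 86.6.

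Imprinted genes outside the set also went both ways, and both parental origins were found in both directions. Of 19 paternally expressed genes measured, 4 were higher in GFP+ and 3 higher in RFP+ (median log2 difference -0.14). Of 21 maternally expressed genes, 3 were higher in each (median 0.00). Over the 40 together 32.5% passed, where 29.98% of all genes did. Peg12 was 4.56-fold higher in GFP+ (646, 765 and 602 against 158, 136 and 111; adjusted p = 9.74e-08), and Peg10, a retrotransposon-derived gene needed for the placenta, 3.21-fold (adjusted p = 6.19e-06). Mest and Zdbf2 were 2.002-fold and 1.76-fold higher in GFP+ (adjusted p = 0.000736 and 0.00458).

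Nap1l5, a nucleosome assembly protein family gene, was 4.04-fold higher in RFP+ (302, 577 and 301 against 1232, 2177 and 1419.9; adjusted p = 5.06e-06), and Inpp5f, a phosphoinositide phosphatase gene, 2.46-fold (adjusted p = 4.92e-05). Both are paternally expressed. Among maternally expressed genes, Atp10a and Asb4 were higher in GFP+ (log2 difference 1.05 and 0.97, adjusted p = 0.000713 and 0.000821) and Cdkn1c, Rian and Zim1 were higher in RFP+. The Asb4 signal was under the near-background level in both groups (means 71.3 and 28.4), as was that of Atp10a in RFP+ (224 and 99.7). The genes not yet named that passed were Impact (log2 difference -0.63, adjusted p = 0.0302) and Commd1 (0.72, adjusted p = 0.0295, groups overlapping), named after their values were seen. Impact lost the call without GFP+ replicate 1 or 2 or RFP+ replicate 1 or 3 (adjusted p up to 0.145), and Commd1 without GFP+ replicate 2 or 3 or RFP+ replicate 1 or 3 (up to 0.139).

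**Figure D4:**
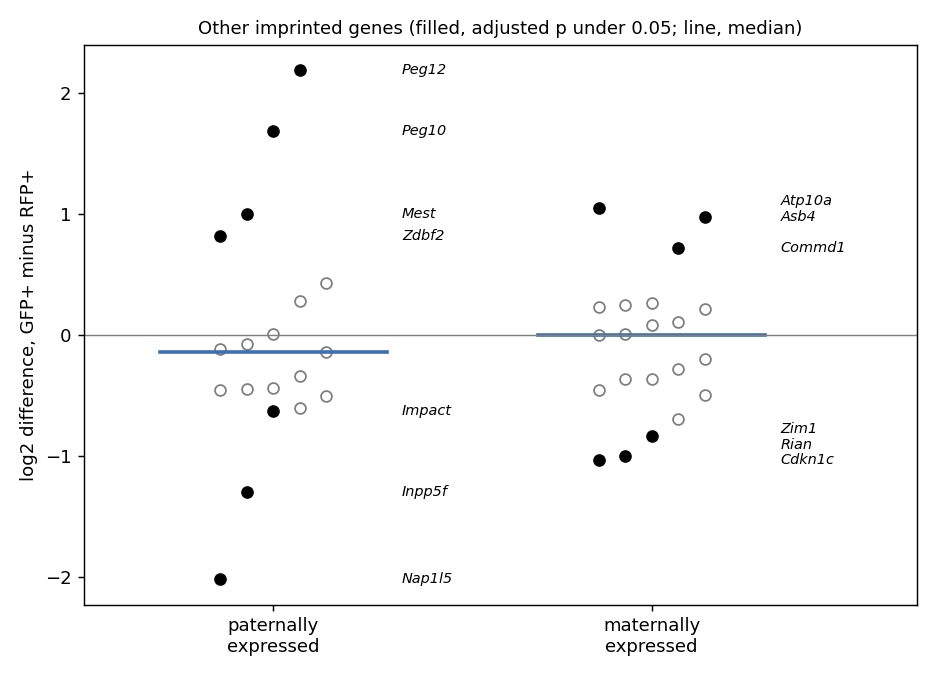
Log2 difference (GFP+ minus RFP+) of 19 paternally and 21 maternally expressed imprinted genes outside the set, 1 point per gene, filled and named where the limma adjusted p was under 0.05, with a line at the median. Filled points lie on both sides of 0 in both columns, from -2.01 (Nap1l5) to 2.19 (Peg12) among the paternally expressed genes.

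The genes whose 6-array profiles were most like those of Igf2 and Dlk1 were of more than 1 kind. They include Rgs5 and Pdgfrb, which mark pericytes and other mural cells of blood vessels. They also include Ednrb, Mmp9, Mlc1, Bgn and Zfp36l1, which are on none of the marker lists used here. Likeness was the root mean square difference of log2 profiles over the 6 arrays, each centred on its own mean. For Igf2 the closest were Rgs5 (0.101), Ednrb (0.137), Pdgfrb (0.166), Mmp9 (0.194) and Mlc1 (0.198). For Dlk1 they were Mmp9 (0.149), Pdgfrb (0.165), Bgn (0.256), Igf2 itself (0.260) and Zfp36l1 (0.274). Rgs5, a marker of pericytes, was read at 1765, 1496 and 2103 on the GFP+ arrays and 99.1, 161 and 118 on the RFP+ arrays. Ednrb, the next closest to Igf2, was read at 2729, 2867 and 3428 on the GFP+ arrays and 171, 236 and 162 on the RFP+ arrays.

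The profiles of the other members were closest to other genes. Grb10 was closest to Cenpe (0.0803), Uaca and Dmrta1, Plagl1 to Raver2 (0.0570), Epb41l2 and Lima1, and Igf2r to C2cd3 (0.0441), Pcdh18 and Zfp111. Peg3 was closest to Rps19-ps3, Dyrk1b and Agk, and Meg3 to Cep70 (0.0535), Cars2 and Polb. Usp29 was closest to Ttc39b (0.0600), Sema4f and Phf24, and Rasgrf1 to Prkce (0.0419), Opcml and Galnt17. Among the 9 members the closest pairs were Usp29 with Rasgrf1 (0.231), Igf2r with Peg3 (0.252) and Igf2 with Dlk1 (0.260). The size of the difference between the groups enters this measure, and likeness over 6 arrays is given as a description.

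Most markers of vascular cells and fewer of those of meningeal fibroblasts were higher on the GFP+ arrays, where Igf2 and Dlk1 were also higher. Of 11 pericyte and mural markers 8 were higher in GFP+ and none in RFP+, led by Vtn (17.7-fold, adjusted p = 5.10e-10), Rgs5 (12.8-fold) and Pdgfrb (12.2-fold). Their summed intensity was 7169 to 8826 on the GFP+ arrays and 1883 to 1996 on the RFP+ arrays. All 10 endothelial markers were higher in GFP+ (Emcn 7.15-fold, adjusted p = 7.17e-08), summing to 2181 to 7074 against 688 to 993. Of 12 meningeal fibroblast markers 5 were higher in GFP+ (Foxc1 8.09-fold, adjusted p = 3.05e-08), summing to 2117 to 2166 against 1241 to 1356. The 3 mural markers that did not pass, Acta2, Myh11 and Tagln, had log2 differences of -0.30, -0.26 and -0.21, and are named after their values were seen. The 7 meningeal markers that did not pass had log2 differences of -0.19 to 0.57, and 6 of the 12 lay under the near-background level in both groups. The RFP+ means of 9 mural, 9 endothelial and 11 meningeal markers lay under that level, so the folds of those markers are uncertain.

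The other lists differed from one another. All 6 markers of oligodendrocyte progenitors were higher in GFP+ (Olig2 13.1-fold, adjusted p = 7.65e-09), summing to 1389.6 to 2099.9 against 266 to 310.4. Cspg4 is counted both on this list and on the mural list. The RFP+ means of all 6 lay under the near-background level. Of 7 inhibitory lineage markers 2 were higher in GFP+ (9871 to 10721.8 against 4439 to 10137). Of 10 microglia markers 0 passed in the limma fit, with 0 at an unadjusted p under 0.05 (1244 to 1821 against 1598 to 1942). Of 7 erythroid markers 1 was higher in GFP+ (1012 to 2163 against 847 to 1119). Of 7 choroid plexus markers 1 was higher in RFP+ (813 to 1023 against 946 to 2176), with RFP+ replicate 3 at the top through Ttr, at 1204 there and at most 61.8 elsewhere. No marker of any list was at 0 on any array. The part of these cell types in the differences of Igf2, Dlk1 and the other members was not tested.

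Within the GFP+ group, the arrays can be set beside the marker sums. GFP+ replicate 2 was the lowest of its group for 7 of the 9 members, Peg3 and Meg3 among them. It was the lowest for Igf2 (a log2 deviation of -0.27 from the group mean), for Dlk1 (-0.26), for Grb10 (-0.28) and for the mural marker sum (-0.20). The endothelial marker sum behaved otherwise: it was lowest on GFP+ replicate 1 (-0.97), where Igf2 stood at 0.06 and Dlk1 at 0.27. The meningeal sum stayed within 0.02 of its mean on all 3 GFP+ arrays. The cortical neuron marker sum was highest on GFP+ replicate 2 (0.15), and the cortical progenitor marker sum ran only from -0.02 to 0.01. The share of all genes that were lowest on GFP+ replicate 2 was not counted. These are 3 arrays, and no relation was tested.

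**Figure D5:**
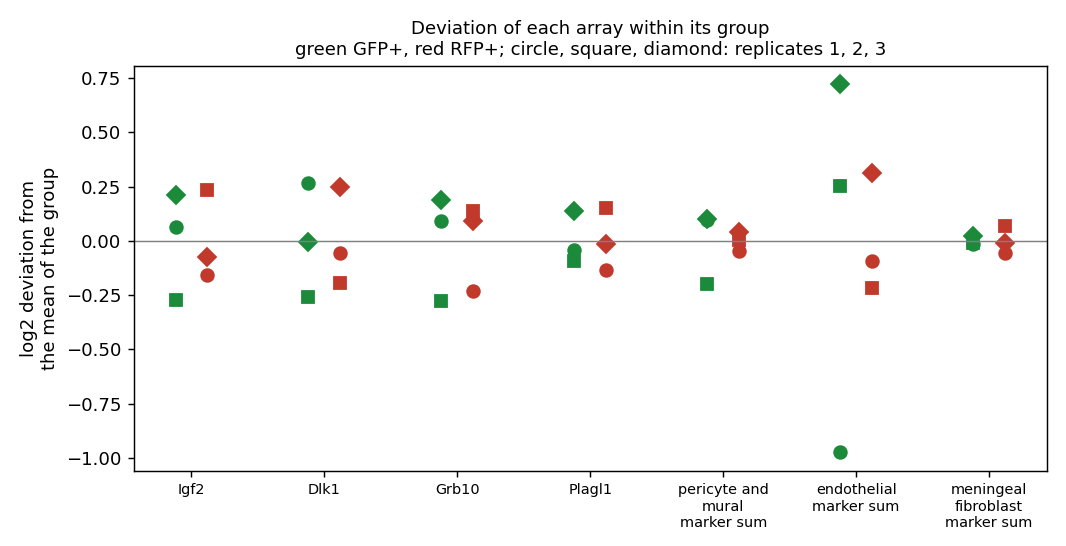
Deviation of each array from the mean of its own group (log2 scale) for Igf2, Dlk1, Grb10, Plagl1 and the summed intensity of 3 marker lists; green, GFP+; red, RFP+; circle, square and diamond, replicates 1, 2 and 3. Among the GFP+ points the green square is lowest for Igf2, Dlk1, Grb10, Plagl1 and the mural sum, whereas the endothelial sum is lowest at the green circle, -0.97.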

How the data were processed

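Total RNA from 6 samples was measured on Affymetrix whole-transcript arrays. The intensity of each probe set, on a linear scale, was deposited by the authors, and the Affymetrix Expression Console is named in the submitters' processing notes. Neither its version nor the normalization, background correction or genome build is given in the sources used here. Of 35557 probe sets, 21789 carried 1 gene symbol in GEO's platform annotation, 1621 carried several and 12147 none. Of the 21789, 21698 matched by Entrez ID and 0 symbols changed. The 999 genes with several probe sets were each represented by the brightest on average, so that 19938 genes were tested, without a filter. The number of arrays limits the precision, and the median SE was 0.21.

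The values log2(intensity + 16) were fitted with limma 3.58.1 (lmFit and eBayes) in R 4.3.3, two-sided, with p-values adjusted by Benjamini-Hochberg across the 19938 genes and called at 0.05. The fit was tested on simulated data. Python 3.11.15 with pandas 2.3.3, numpy 2.4.6 and matplotlib 3.10.9 made the tables and plots. Sequences came from RefSeq tables (GRCm38.p6).

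The members and all gene lists were chosen with earlier results of these data known. From each list the text names up to 4 genes with the largest difference in the majority direction (both when equal) and 2 the other way, among genes past the threshold without overlap. It names any neighbouring gene of an imprinted domain, 3 markers per list at most, and the 5 or 3 genes most like each member.

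Replicate numbers in the sample titles may pair the arrays. Deviations from the group means, correlated across genes, gave 0.204, 0.288 and 0.361 for the same number and -0.266 to 0.00416 for different numbers, so the numbers were taken to pair the arrays from these data. The labels do not say what they stand for, and deviations within a group sum to 0, so these values are not independent. Unless stated, all calls and p-values are from the fit without this pairing, in which 5978 genes passed. The fit with the replicate number as a block, in which 7371 passed, was an alternative. The others were an offset of 1, leaving out the dimmest 30% or 50% of genes, quantile normalization, median centring, averaging the probe sets of a gene, an intensity trend with robust moderation, and leaving out each array in turn.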

Additional observations from a re-analysis of the deposited data

How the results depend on the processing

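With the replicate number as a block, 7371 genes passed in place of 5978, the count of members past the threshold stayed at 8, and 3 neighbours of Igf2 (in place of 1) and 3 erythroid markers (in place of 1) passed. The pairing moved no other list's count by over 1.5 times. The 9 members kept their direction in each of the 14 alternatives that tested them. Igf2r lost its call in 4 single-array omissions, and Rasgrf1 was left out with the dimmest 50% of genes. Over single-array omissions the log2 differences ran from 3.71 to 3.95 for Igf2, 3.57 to 3.83 for Dlk1, 2.59 to 2.85 for Grb10, 1.54 to 1.68 for Plagl1, 0.46 to 0.70 for Igf2r, 0.05 to 0.31 for Peg3, -1.08 to -0.80 for Meg3, -1.91 to -1.54 for Usp29 and -2.09 to -1.92 for Rasgrf1. With an offset of 1, Dlk1 was at 4.04, Rasgrf1 at -2.32 and 0 erythroid markers passed.

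Leaving out dim genes, which removes them from the test, changed several counts past the threshold. Without the dimmest 30%, they were 3 for the neighbours of Igf2, 2 for those of Grb10, 3 for Ras controls, 5 for microRNA genes, 3 for meningeal, 0 for choroid plexus and 2 for erythroid markers. Without the dimmest 50%, they were 3 for the neighbours of Igf2, 0 for those of Dlk1, 3 for maternally expressed genes, 3 for Ras controls, 1 for microRNA genes, 2 for endothelial, 5 for mural and 0 for meningeal markers. Quantile normalization gave 2 neighbours of Igf2, 0 choroid plexus and 2 erythroid markers, and median centring 2 neighbours of Igf2. The intensity trend gave 3 neighbours of Igf2, 2 of Grb10, 0 choroid plexus and 4 inhibitory lineage markers. The cause of these last changes was not tested.

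Over single-array omissions, all genes past the threshold numbered 4506 to 5566, neighbours of Igf2 1 to 2, of Dlk1 1 to 3, of Igf2r 0 to 1 and of Grb10 1 to 2, microRNA genes 6 to 12, paternally expressed genes 6 to 8, maternally expressed genes 4 to 6, lysosomal genes 3 to 7, Ras controls 4 to 6, imprint maintenance genes 4 to 6, meningeal 4 to 6, choroid plexus 0 to 2, microglia 0 to 1, erythroid 0 to 3 and inhibitory lineage markers 1 to 4. Of 64 other named genes, 55 kept their call in all alternatives in which they were tested and 0 reversed. Signal near background limits Igf2, Dlk1 and Rasgrf1 in their lower group and most microRNA genes in both.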

Other observations

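Genes that maintain imprints and DNA methylation were read on the same arrays. Of 20 measured, 4 were higher in GFP+, 2 were higher in RFP+ and 14 were not past the threshold. Together 30% passed, where 29.98% of all genes did. The median log2 difference was 0.03, where the median over all genes was -0.08. Uhrf1, which brings the maintenance methyltransferase to replicating DNA, was read at 1890.1, 2152 and 1922 on the GFP+ arrays and 313, 396 and 342 on the RFP+ arrays (5.48-fold higher in GFP+, limma adjusted p = 1.60e-08). Hells, a chromatin remodeller gene of DNA methylation, was 3.50-fold higher in GFP+ (adjusted p = 6.84e-07), and the de novo methyltransferase gene Dnmt3a 2.35-fold (adjusted p = 7.86e-05).

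Zfp57, a zinc finger gene whose product protects methylated imprints in the embryo, went the other way: it was read at 2736, 2096 and 2835 on the GFP+ arrays and 5804, 4125 and 6378 on the RFP+ arrays (2.10-fold higher in RFP+, adjusted p = 0.000844). Dnmt1, the maintenance methyltransferase gene, had a log2 difference of 0.38 (adjusted p = 0.154) without overlap between the groups, and Ctcf, which encodes the insulator protein of the Igf2 and H19 domain, one of -0.04 (adjusted p = 0.915). Mbd3 (0.61) and Arid4a (-0.61) passed with all arrays, and each lost the call in several single-array omissions. These arrays measure RNA and not DNA methylation.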
